A study of Mus musculus with 18 samples.

Results

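The genes described here are 8 imprinted or imprint-associated mouse genes from loci where a short gene lies inside the body of a longer one. Nnat, Nap1l5, Mcts2 and Zrsr1 are nested genes, and Blcap, H13, Inpp5f and Trappc9 are hosts. Nnat lies in Blcap and Mcts2 in H13. Nap1l5 lies in Herc3 and Zrsr1 in Commd1, hosts that are not among the 8, and the imprinted partners of Inpp5f and Trappc9 have no values of their own here. They were taken by name, 8 of 17761 gene symbols present in both deposited RNA tables, and every H3K9me3 region and KAP1 peak within 20 kb of their spans was collected. The study removed Trim28, which encodes TRIM28 or KAP1, from mouse cells. The labels describe 18 libraries, of which 4 RNA libraries, with their levels, and 6 deposited peak or region lists entered the work. Wild-type and knockout ES3 cells are embryonic stem cells of the C57BL/6 strain grown with serum and the cytokine LIF, the knockout 4 days after a Cre recombinase was induced with 4-hydroxytamoxifen and the wild type cultured for 4 days. Wild-type and knockout MEFs, embryonic fibroblasts of the same strain, were the second pair, with 5 days in place of 4. Whether the wild-type cells carried the floxed alleles or were given 4-hydroxytamoxifen is not given in the sources used here. All chromatin lists came from ES3 cells. The columns of the ES table are named only wild type and knockout, and were read as ES3 because no other ES pair has both labels.

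In imprinting, 1 parental copy of a gene is silenced. At many imprinted genes the parental copies differ in DNA methylation laid down in the germline. Several short imprinted genes, among them Mcts2, Zrsr1 and Nap1l5, arose when the RNA of another gene was copied back into an intron of an unrelated host; each carries a methylated promoter on the maternal copy and is expressed from the paternal one. KAP1 is brought to such methylated elements by zinc finger proteins, of which ZFP57 is the best known and binds TGCCGC when it is methylated, and KAP1 recruits the enzyme SETDB1, which places H3K9me3. Nnat and Blcap are the best-known neighbours of this kind in brain. The cells are of 1 strain, so the parental copies cannot be told apart in these data, and no value below says which copy was transcribed or bound.

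The start regions of the 4 nested genes are printed because the KAP1 peaks of 2 of them lay over the gene start. Each is the RefSeq window on GRCm38.p6, from 250 bases before to 50 after the annotated start, read 5′ to 3′ along the gene, and capitals mark TGCCGC or its reverse complement GCGGCA. The windows were searched on both strands and have another build than the peak lists, so neither was placed on the other.
Nnat, chr2:157559828-157560127, plus strand: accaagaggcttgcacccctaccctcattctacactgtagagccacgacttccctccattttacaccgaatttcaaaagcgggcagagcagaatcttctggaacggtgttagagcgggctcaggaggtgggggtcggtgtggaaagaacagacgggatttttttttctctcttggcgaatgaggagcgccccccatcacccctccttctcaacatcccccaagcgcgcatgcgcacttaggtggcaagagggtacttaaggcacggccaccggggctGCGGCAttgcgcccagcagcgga
Nap1l5, chr6:58907077-58907376, minus strand: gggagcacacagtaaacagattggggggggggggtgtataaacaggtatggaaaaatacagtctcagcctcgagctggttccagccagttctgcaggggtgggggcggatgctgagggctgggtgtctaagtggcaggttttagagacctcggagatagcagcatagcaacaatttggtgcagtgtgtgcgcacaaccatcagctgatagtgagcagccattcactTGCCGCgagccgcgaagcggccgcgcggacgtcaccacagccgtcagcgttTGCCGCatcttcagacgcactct
Mcts2, chr2:152686898-152687197, plus strand: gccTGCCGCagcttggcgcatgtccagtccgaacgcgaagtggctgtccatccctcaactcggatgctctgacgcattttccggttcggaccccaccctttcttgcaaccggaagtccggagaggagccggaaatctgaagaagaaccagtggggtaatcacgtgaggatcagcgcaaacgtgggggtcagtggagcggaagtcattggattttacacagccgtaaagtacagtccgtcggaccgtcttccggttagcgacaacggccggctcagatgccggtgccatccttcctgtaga
Zrsr1, chr11:22971755-22972054, plus strand: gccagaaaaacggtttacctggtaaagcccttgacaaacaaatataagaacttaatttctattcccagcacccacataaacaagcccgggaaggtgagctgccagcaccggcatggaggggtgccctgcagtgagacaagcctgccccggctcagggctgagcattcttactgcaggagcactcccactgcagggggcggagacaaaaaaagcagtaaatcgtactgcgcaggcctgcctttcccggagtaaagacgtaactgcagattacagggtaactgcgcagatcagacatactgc
The Nap1l5 window held 2 matches, at -24 and 27 bases from the start, where 0 is the first base of the gene. The Nnat window held 1 match, on the reverse strand at 27 bases, and the Mcts2 window held 1 at -247 bases. Zrsr1 and the hosts Blcap, H13 and Inpp5f held 0. Of the hosts outside the 8 genes, 1 window of Commd1 held 1 match, on the reverse strand at 9 bases. Another Commd1 window and that of Herc3 held 0. A window was matched for 7 of the 8 genes, all but Trappc9. Across all 32851 windows of that table, 11.6% held at least 1 match and 1.53% at least 2. The 6 letters are a description of these windows and show no binding.

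Each group was 1 RNA library, made from duplicates that were pooled before RNA was extracted, so no spread between samples, p-value or test could be had for any difference below. Levels are the deposited RPKM, a read density corrected for transcript length and library size, with 1 RefSeq transcript per gene, the one with the highest mean in its table. A gene counted as measured at 1 RPKM or more in either library of a pair, and was called when it was 2-fold or more higher or lower on the scale log2((knockout + 1)/(wild type + 1)). Trim28 itself was at 1050.73 RPKM in wild-type ES3 cells and 37.2 in the knockout, 3.54% of wild type, and at 62.8 and 5.84 in MEFs, 9.29% of wild type. In ES3 cells and in MEFs alike, 7 of the 8 genes were measured, all but Nap1l5. In ES3 cells 2 of the 7, Nnat and Inpp5f, were called higher and 0 lower, beside 12.5% higher and 3.18% lower of all 12024 measured genes. In MEFs 0 of the 7 were called either way, beside 0.981% higher and 4.84% lower of all 10805 measured genes. The median log2 ratio of the 7 was 0.49 in ES3 cells and 0.41 in MEFs, beside 0.08 and 0.00447 over all measured genes. With the transcript of lowest mean kept in place of the highest, the medians were 0.20 and -0.14, so the MEF median changed sign, and after the median ratio of genes of similar span was subtracted they were 0.44 and 0.27. Across the genes of the MEF table, which are not independent, span and ratio had a rank correlation of -0.54. The value after that subtraction is therefore given beside each printed MEF ratio of the 8 genes that it moved by over 1.5 times. MEF ratios of other genes are given without it. Since the genes were chosen by name with earlier results known, those counts are a description.

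Nnat encodes neuronatin, a small membrane proteolipid of neurons and endocrine cells, and it showed the largest ES3 difference of the 8 genes. Its level was 10.4 RPKM in wild-type and 33.1 in knockout ES3 cells, a log2 ratio of 1.58. Of all measured genes, 4.99% had a higher ES3 ratio. The other Nnat transcript, NM_180960, which the table leaves without a symbol, was at 10.3 and 29.6 RPKM, a log2 ratio of 1.44, so both transcripts were past 2-fold. In MEFs, where that second transcript had the higher mean, the levels were 3.67 and 4.39 RPKM, a log2 ratio of 0.21 that became -0.33 after the subtraction by span. Serping1, a complement inhibitor, had the pattern most like that of Nnat over the 4 libraries, at a distance of 0.22 on the log2(RPKM + 1) scale, with 9.48 and 34.1 RPKM in ES3 cells and 4.21 and 4.66 in MEFs.

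Blcap, the host of Nnat, encodes a small membrane protein first named for its loss in bladder cancer. Nnat lies inside the Blcap span on the opposite strand, at chr2:157385846-157388258 within chr2:157382098-157392097 of the mm9 build, and the starts are 6251 bases apart. The level of Blcap was 13.8 RPKM in wild-type and 19.8 in knockout ES3 cells, a log2 ratio of 0.49. Its second transcript, NM_001177356, was at 2.65 RPKM in both. In MEFs Blcap was at 34.0 and 48.5 RPKM, a log2 ratio of 0.50, or 0.28 after the subtraction by span. Against its host, Nnat went from a quotient of 0.753 in wild-type to 1.67 in knockout ES3 cells, and from 0.108 to 0.0905 in MEFs. The log2 ratio of the nested gene thus exceeded that of the host by 1.09 in ES3 cells, and the same difference was -0.30 in MEFs. Whether reads were counted by strand is not given in the sources used here, so reads from overlapping parts of the genes on opposite strands cannot be assigned with certainty.

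Inpp5f, on the plus strand at chr7:135754842-135839939, encodes a phosphoinositide phosphatase of endosomes and was the other gene called higher. Its level was 2.24 RPKM in wild-type and 7.09 in knockout ES3 cells, a log2 ratio of 1.32, which fell to 0.74 with a pseudocount of 5 RPKM. Of all measured genes, 7.58% had a higher ratio. In MEFs it was at 3.48 and 2.78 RPKM, a log2 ratio of -0.24 that turned to 0.27 after the same subtraction by span. The imprinted transcript of this locus, known as Inpp5f_v2, starts in an intron near the end of the gene and shares its last exons, so an RPKM over the Inpp5f row cannot separate variant and host. The genes most like Inpp5f were Arhgap27, a GTPase activator, at a distance of 0.29, and Slc35c1, a GDP-fucose transporter, at 0.35.

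Mcts2, a copy of the X-linked Mcts1, encodes a translation-associated protein and lies in H13, which encodes signal peptide peptidase. Both are on the plus strand, Mcts2 at chr2:152512771-152513687 and H13 at chr2:152495197-152534406, with starts 17574 bases apart. Mcts2 was the most abundant of the nested genes in wild-type ES3 cells, at 31.9 RPKM, and was at 26.0 in the knockout, a log2 ratio of -0.28. In MEFs it was at 6.40 and 10.8 RPKM, a log2 ratio of 0.67 that dropped to 0.13 after the subtraction by span. H13 was at 2.71 and 4.39 RPKM in ES3 cells, a log2 ratio of 0.54, and its 4 transcripts had knockout to wild-type quotients from 1.42 to 1.93. In MEFs H13 was at 20.8 and 30.1 RPKM, a log2 ratio of 0.52, while its transcript NM_001159553 was at 2.59 and 1.84. Mcts2 thus exceeded its host by a quotient of 11.8 in wild-type and 5.93 in knockout ES3 cells, and lay below it, at 0.308 and 0.357, in MEFs. The source gene Mcts1 was at 14.7 and 19.8 RPKM in ES3 cells and at 15.5 and 12.2 in MEFs, the opposite order of Mcts2 in both pairs. Reads of a retrotransposed copy and its source can be shared, so the levels of Mcts2 and Mcts1 are uncertain.

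Zrsr1, a copy of the splicing factor gene Zrsr2, lies at chr11:22873215-22876498, inside Commd1, which encodes a regulator of copper and of NF-kappaB, on the opposite strand and with starts 9167 bases apart. It was at 17.8 RPKM in wild-type and 20.7 in knockout ES3 cells, a log2 ratio of 0.20, and at 10.0 and 8.40 in MEFs, a log2 ratio of -0.23, or -0.65 after the subtraction by span. Commd1 was at 32.8 and 25.9 RPKM in ES3 cells, a log2 ratio of -0.33, and at 22.3 and 39.1 in MEFs, a log2 ratio of 0.78. The ratios of the pair thus had opposite signs in each cell type. None reached 2-fold, but the MEF ratio of Commd1, which spans 147639 bases, is given without the subtraction by span. The other Commd1 transcript, NM_001169114, was at 8.25 and 4.77 RPKM in ES3 cells and at 3.64 and 2.71 in MEFs. In MEFs that transcript thus had the sign of Zrsr1. Zrsr2 was at 6.28 and 5.84 RPKM in ES3 cells and at 6.55 and 7.25 in MEFs, and the caution about shared reads holds for Zrsr1 too.

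Nap1l5, a member of the nucleosome assembly protein family, lies on the minus strand at chr6:58856046-58857083. It was the least abundant gene and did not reach 1 RPKM in any library. Its level was 0.646 RPKM in wild-type and 0.285 in knockout ES3 cells, and 0.386 and 0.301 in MEFs, values too low to be read as a difference. Its host Herc3, a ubiquitin ligase gene, was at 1.84 and 2.85 RPKM in ES3 cells and at 3.64 and 4.90 in MEFs. Trappc9 encodes a subunit of the vesicle-tethering complex TRAPP, spans chr15:72420051-72891634 on the minus strand and holds the imprinted noncoding gene Peg13, which was not analysed here. Its ES3 transcript with the highest mean was at 3.01 and 2.88 RPKM, a log2 ratio of -0.05, and the 3 other transcripts were slightly higher in the knockout. In MEFs another transcript, NM_029640, had the highest mean, at 3.45 and 4.92 RPKM, a log2 ratio of 0.41, or 0.88 after the subtraction by span, and NM_001164643 was at 2.27 and 1.54.

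**Figure D1:**
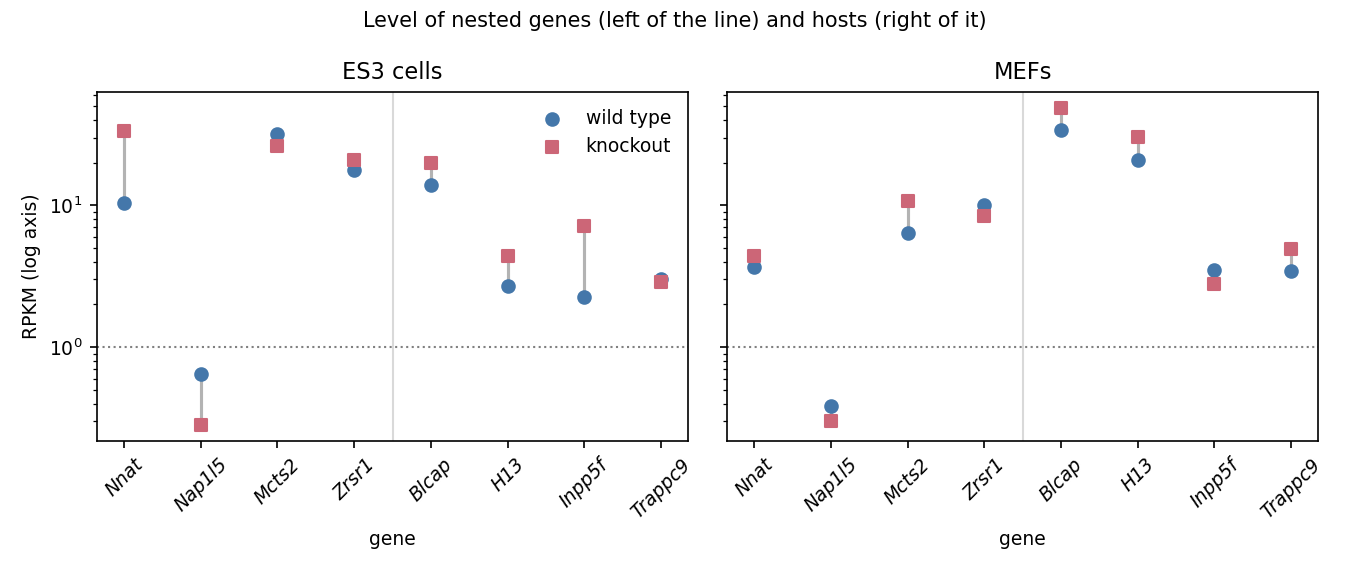
RPKM of the 4 nested genes and 4 hosts in wild-type (circles) and knockout (squares) libraries of ES3 cells and MEFs, on a log axis, with grey lines joining the 2 libraries of a gene and a dotted line at 1 RPKM. Each point is 1 library. Nnat and Inpp5f show the widest gaps among the measured genes in ES3 cells, and Nap1l5 lies below 1 RPKM in all 4 libraries.

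Over all transcript rows of the 8 genes, 12 of 16 were higher in knockout than wild-type ES3 cells and 10 of 16 in MEFs. The shares over all rows in the tables were 56.6% and 40.8%, but those include rows at 0 in both libraries, which cannot be higher. Of measured genes, 6665 of 12024 in ES3 cells and 5431 of 10805 in MEFs had a ratio above 0. The transcript rows of a gene share exons and are not independent. The plot of transcript ratios shows that only rows of Nnat and Inpp5f lay past 2-fold.

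**Figure D2:**
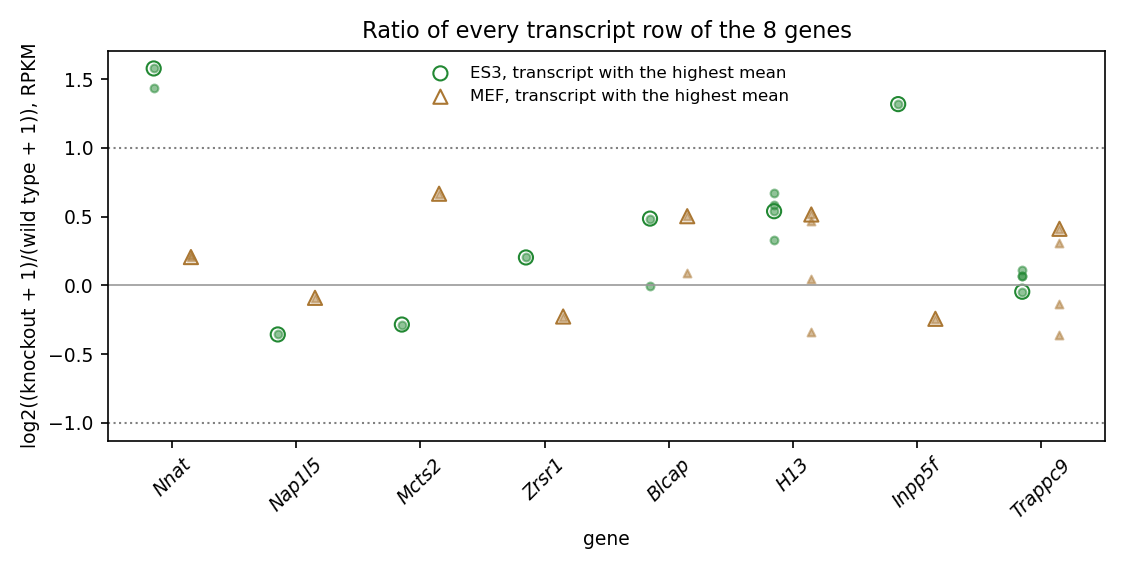
Log2((knockout + 1)/(wild type + 1)) of every transcript row of the 8 genes in ES3 cells (green circles) and MEFs (brown triangles). Open symbols mark the transcript with the highest mean, and dotted lines mark 2-fold. The ES3 rows of Nnat and Inpp5f are above the upper line and no MEF row is past either line.

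KAP1 peaks in wild-type ES3 cells were called over input, 1 call per condition, with a deposited score whose scale is not stated. Of the 8 genes, 5 had such a peak within 20 kb of the span (Nnat, Blcap, Nap1l5, Inpp5f and Trappc9), beside 12.8% of all 17818 symbols. Nnat and Blcap share 1 of the 4 peaks. A long span can meet a peak far from its start, and measured from the gene start the count was 3 (Nnat, Blcap and Nap1l5), beside 6.94% of symbols. The peaks over a gene start, a window chosen after the values were seen, were those of Nnat and Nap1l5, beside 0.174% of symbols, which is 31 genes. In the list called in wild type over knockout, 4 of the 8 genes had a peak (Nnat, Blcap, Nap1l5 and Inpp5f), beside 9.54% of symbols, and in the list called in knockout over input, 3 did (Nnat, Blcap and Zrsr1), beside 9.24%. The first 2 lists share the wild-type library and the last 2 the knockout library. Scores come from separate calls and are read within a list only.

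The peak at Nnat and Blcap, chr2:157384869-157386701, was 1833 bases long and had the score 851.8, rank 6 of 3099 wild-type peaks, whose median score was 59.73. Its centre lay 61 bases before the Nnat start and 6.312 kb into Blcap from the Blcap start. The same interval stood in the wild-type over knockout list, at 147.36 and rank 124 of 2382, and that list held a further peak, chr2:157368122-157368624, at 54.97 and rank 1631, which lay 17222 bases from Nnat and 13474 from Blcap. A shorter peak, chr2:157385686-157386325, remained in the knockout over input list, at 78.39 and rank 296 of 1898, and it too covered the Nnat start. Of those 1898 knockout peaks, 4.06% overlapped a wild-type peak.

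The peak at Nap1l5, chr6:58856531-58857378, scored 323.9 and ranked 52, and it covered the Nap1l5 start while lying at 84.9% of the Herc3 span, counted from the Herc3 start. It was also in the wild-type over knockout list, at 288.41 and rank 30, and no knockout peak lay within 20 kb. The Inpp5f peak, chr7:135831067-135832056, scored 342.35 and ranked 44, and its score in the wild-type over knockout list was also 342.35, at rank 19. It lay 76.7 kb from the Inpp5f start, at 90.2% of the span, where the gene's end is the part that Inpp5f_v2 shares. The Trappc9 peak, chr15:72640323-72640934, scored 68.21 and ranked 940, and it lay 251.006 kb from the start, at 53.2% of the span, and was in neither of the other lists. So the 3 peaks with the highest scores lay at Nnat with Blcap, at Inpp5f and at Nap1l5, and of the genes there Nnat and Inpp5f were called higher, Blcap was not, Nap1l5 was not measured, and Herc3, whose span also holds the Nap1l5 peak, was measured with a log2 ratio of 0.44 and not called.

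Zrsr1, Mcts2 and H13 had no wild-type peak within 20 kb. The closest was 98.0 kb from Mcts2 and 77.3 kb from H13. At Zrsr1 a peak called only in the knockout over input list, chr11:22873019-22873556, covered the gene start, with the score 63.29 and rank 889 of 1898, near the median of that list, 62.62. A peak absent from a list may lie under the authors' threshold, so that absence is not a measured zero.

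**Figure D3:**
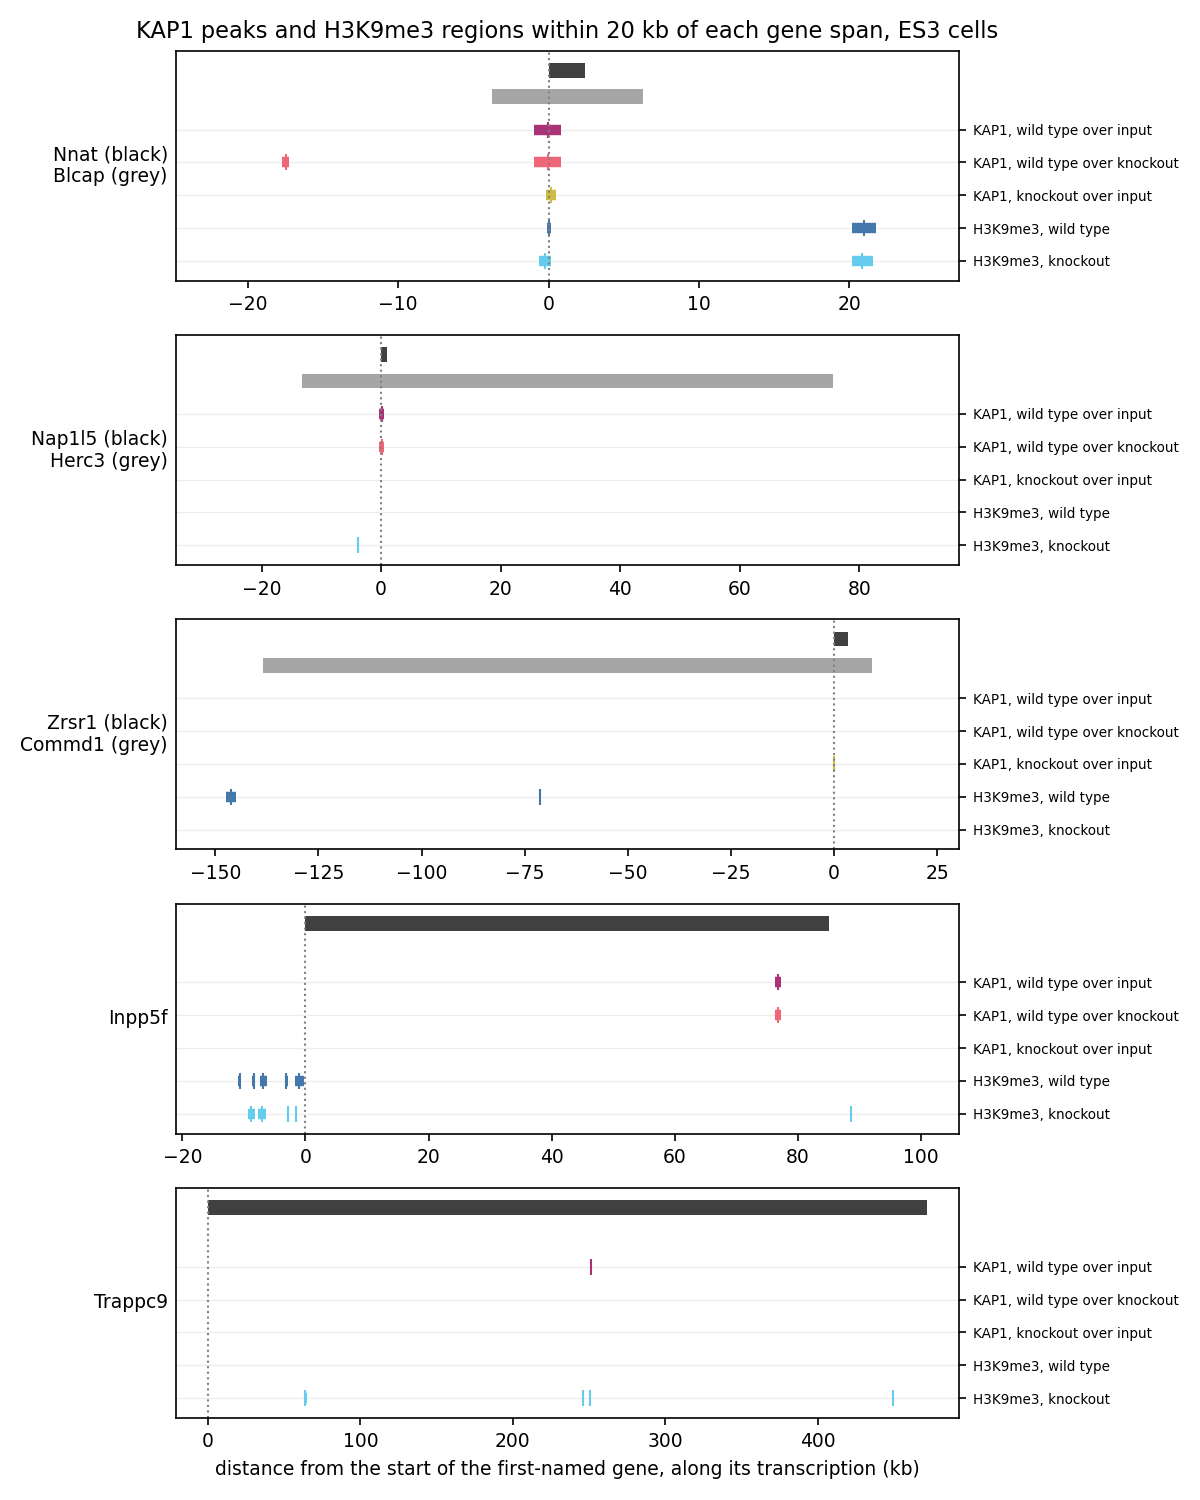
Position in kb from the start of the first-named gene, along its direction of transcription, of the KAP1 peaks and H3K9me3 regions within 20 kb of 5 loci (rows), with black bars for that gene and grey bars for its partner. Short intervals carry a tick at their centre. The wild-type KAP1 peak sits over the start of Nnat and of Nap1l5 and near the end of Inpp5f; the Mcts2 and H13 locus held no interval of any list and is not drawn.

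Among the 31 genes with a wild-type KAP1 peak over the start, Nnat and Nap1l5 had the 2 highest scores. The imprinted genes Peg3 and Meg3 were also among them, at scores of 70.27 and 69.22. Of the 31, 16 were measured in ES3 cells, 3 of them higher and 1 lower, beside 12.5% and 3.18% of all measured genes. The median log2 ratio was 0.05, beside 0.08 over all measured genes. Peg3, which encodes a zinc finger protein, was 5.18 and 16.6 RPKM in wild-type and knockout ES3 cells, and Meg3, a noncoding RNA, 14.8 and 10.1 RPKM.

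**Figure D4:**
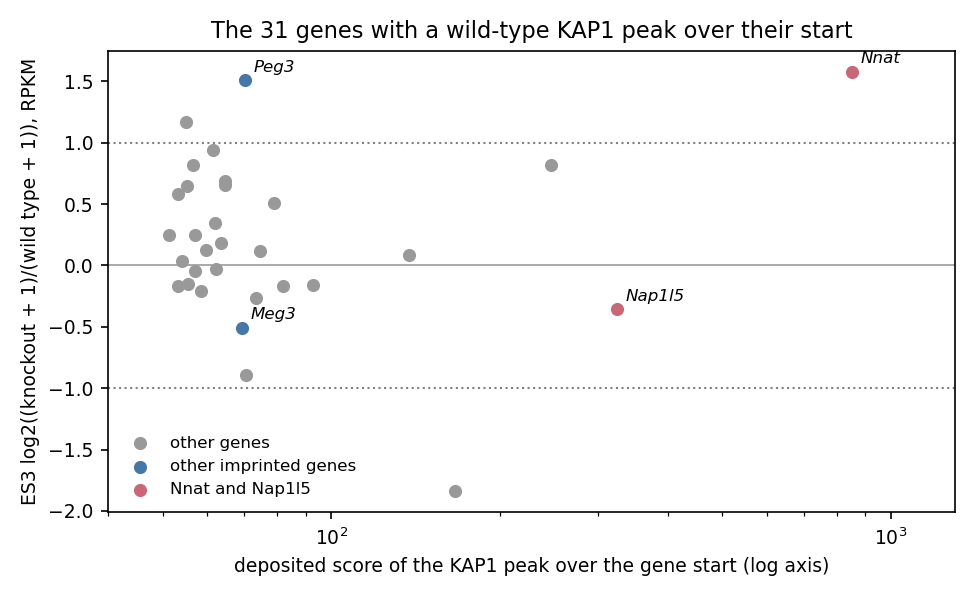
Deposited score of the KAP1 peak (x, log axis) against the ES3 log2 ratio (y) for the 31 genes with a wild-type peak over their start, each point 1 gene; dotted lines mark 2-fold. Nnat has the highest score and a ratio above the upper line, while Nap1l5, which was not measured, has the second highest score.

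H3K9me3 was given as lists of regions with no score. Regions of wild-type cells lay within 20 kb of 3 of the 8 genes (Nnat, Blcap and Inpp5f), beside 37.6% of symbols, and regions of knockout cells within 20 kb of 5 (those and Nap1l5 and Trappc9), beside 37.5%. A region called in wild type only lay within 20 kb of 1 gene, Inpp5f, beside 28.2%. According to the labels H3K9me3 had gone down at this time after induction without disappearing. The number of regions does not show such a fall, with 37002 in wild type and 37221 in the knockout, and regions without a score give no level. Of the wild-type regions, 48.5% overlapped a knockout region. At Nnat the region over the gene start was 297 bases long in wild type, chr2:157385720-157386016, and 826 bases in the knockout, chr2:157385197-157386022, so both lists hold H3K9me3 under the KAP1 peak. A second region, beyond the Nnat end, was chr2:157405999-157407635 in wild type and chr2:157405986-157407406 in the knockout. At Inpp5f 5 wild-type regions lay upstream of the start, of which chr7:135743955-135744363 was the wild-type-only one, 10.479 kb away. The others were chr7:135746181-135746714, chr7:135747436-135748590, chr7:135751457-135752072 and chr7:135753072-135754648, the last 194 bases from the start. In the knockout 4 lay upstream, chr7:135745481-135746666, chr7:135747115-135748470, chr7:135751983-135752079 and chr7:135753138-135753549, and each overlapped a wild-type region. One more knockout region, chr7:135843352-135843640, lay 3413 bases beyond the end of the gene, and none of either list lay at the KAP1 peak. At Nap1l5 the only region was one of the knockout, chr6:58860790-58861138, 3.707 kb from the gene. At Trappc9 4 regions of the knockout lay inside the gene and 1 of them, chr15:72640590-72641402, overlapped the KAP1 peak. The others were chr15:72441814-72442292, chr15:72644971-72645738 and chr15:72826799-72828696, and the closest wild-type region was 21.985 kb from the gene. Mcts2, H13 and Zrsr1 had none in either list, and the closest wild-type region was 99.8, 79.1 and 61.3 kb away. The host Commd1 had 2 wild-type-only regions within 20 kb, 1 of them, chr11:22801692-22802195, inside the gene.

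Other imprinted genes, a list of 46 fixed by name, give the setting. Of 31 measured in ES3 cells, 7 were higher and 4 lower, beside 12.5% and 3.18% of all measured genes. Their median log2 ratio was 0.17, and the largest ratios were those of the growth factor Igf2, 3.65, Cobl, -3.58, Osbpl5, 2.60, and Grb10, 2.34. In MEFs 3 of 26 were lower and 0 higher, beside 4.84% and 0.981% of all measured genes, and the median was -0.24. A wild-type KAP1 peak lay within 20 kb of 16 of the 38 with an ES3 row, 42.1%, beside 12.8% of all symbols. Some of the 16 are neighbours in the same imprinted domain and can share a peak, so the count is not one of separate peaks. A wild-type KAP1 peak lay over the start of 2, 5.26%, beside 0.174%. A list of 22 genes was fixed by name for the upkeep of imprints. It also holds genes that set or remove DNA methylation, so it is not a list of upkeep genes alone. Of the 22, 21 were measured in ES3 cells. Of these, 6 were lower and 0 higher, beside 3.18% and 12.5% of all measured genes, and the median was -0.49. The lower ones included Trim28, the gene that was removed, at -4.78. Others were the methylation cofactor gene Dnmt3l, at -1.61, the demethylation enzyme gene Tet2, at -1.46, and Zfp57, at 52.9 and 20.4 RPKM and a log2 ratio of -1.33. The rest were Tet1, also a demethylation enzyme gene, at -1.30, and Cbx1, at -1.22. In MEFs 16 were measured, 3 of them lower, Trim28 among them, and 0 higher, beside 4.84% and 0.981% of all measured genes. The median there was -0.65.

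Marker levels differed between the ES3 libraries. The 7 ES cell markers were all lower in the knockout, 4 of them past 2-fold, and their summed level went from 2026 to 1038 RPKM. The 8 primitive endoderm markers were all past 2-fold higher, from 30.6 to 1074 RPKM in sum, with a median log2 ratio of 3.85, and the 4 measured of 5 trophectoderm markers were too, from 12.0 to 353 RPKM. Most of that 353 RPKM was the keratin genes Krt8, at 179 RPKM in the knockout, and Krt18, at 164. In the knockout Hand1 was at 7.69 RPKM and Cdx2 at 1.59, and Eomes, at 0.881, was not measured. Markers of neural cells, where Nnat is best known, summed to 49.6 and 57.5 RPKM, with 1 of 5 measured higher (Nes, a log2 ratio of 2.52) and 1 lower (Sox1, -1.12). Endothelial markers summed to 9.60 and 15.4 RPKM, with 2 of 4 higher. Most of the wild-type endothelial sum was Pecam1, at 9.28 and 5.05 RPKM. Cdh5 was at 0.173 and 6.56 RPKM, Tie1 at 0.0595 and 2.65, and Kdr at 0.0846 and 1.15. Leukocyte markers summed to 172.7 and 90.1 RPKM, with 1 of 2 measured lower. Most of the leukocyte sum was Laptm5, at 149.6 and 65.0 RPKM, with Cd68 at 23.1 and 25.1, while Ptprc was at 0 and 0.0107 RPKM. The 8 fibroblast markers summed to 180 and 169 RPKM in ES3 cells, and most of both sums was Fn1, at 176.6 and 141.7 RPKM. Of 6 measured, 3 were higher, Col1a1 with a log2 ratio of 2.94, Pdgfra with 3.07 and Twist2 with 1.02, and the median was 0.98. Postn and Twist2 were at 0 in wild type. No listed ES cell, primitive endoderm, trophectoderm or neural marker was at 0 in an ES3 library. In MEFs the 8 fibroblast markers summed to 5619 and 3832 RPKM, with 1 higher and 2 lower, and of the neural markers Tubb3 was higher, with a log2 ratio of 1.15, while Pax6 and Neurod1 were at 0. Whether these shifts have a part in the values of Nnat, Inpp5f and the other genes was not tested, and in bulk RNA more cells of a type and more RNA per cell cannot be told apart.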

How the data were processed

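The labels describe duplicates pooled before RNA extraction, so each group is 1 library, and p-values, spreads and leave-one-out fits were not possible. The authors deposited RPKM values per RefSeq transcript, with 22631 rows for ES cells and 22630 for MEFs. The submitters' processing notes name Bowtie and the build mm9; no version or read counter is given there. Depth is unknown; RPKM summed over symbols to 318250, 306318, 308887 and 369572 in ES3 wild type, ES3 knockout, MEF wild type and MEF knockout. The authors deposited a score per KAP1 peak, with an unstated scale, and H3K9me3 regions as starts and ends alone. Immunoprecipitations were done 2 or 3 times, per the labels' protocols, but each list is 1 call.

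Ratios were taken within a table, since the tables were normalised separately, with a pseudocount of 1 RPKM. Rows with no symbol, 780 and 778, took the reference symbol of their transcript, and each symbol kept its transcript of highest mean. Gene positions are the deposited mm9 coordinates. Regions near a gene share 1 base or more with its span extended by 20 kb. Promoter windows came from RefSeq, GRCm38.p6. Python 3.11.15, pandas 2.3.3 and numpy 2.4.6 were used, and the scripts were tested on simulated data. The genes and lists were chosen with earlier results of these data known. Named genes are the 8 genes, their hosts and source genes, and the 2 genes nearest to each of the 8 over the 4 libraries. Trim28 and up to 4 list members with the largest ES3 ratio were named too. Peg3, Meg3, Zfp57, Tet1, Cbx1 and Fn1 were added after their values were seen. Alternatives were pseudocounts, filters, centring, the transcript kept, folds and distances.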

Additional observations from a re-analysis of the deposited data

Results flagged for a closer look

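Of the 7 measured genes, 4 had ratios of opposite sign in ES3 cells and MEFs; with 1 library per group that difference was not tested, and the tables were normalised separately. For Inpp5f the ES3 log2 ratio of 1.32 minus the MEF one of -0.24 gave 1.56, and the MEF value turned to 0.27 after centring by gene span. For Mcts2 -0.28 minus 0.67 gave -0.95, and that centring took the MEF value to 0.13. For Zrsr1 0.20 minus -0.23 gave 0.43, with a centred MEF value of -0.65. For Trappc9 -0.05 minus 0.41 gave -0.46, with a centred MEF value of 0.88 and a different transcript kept in each table. Matched by transcript, the Trappc9 signs were the same for NM_001164643 (-0.05 in ES3 cells and -0.36 in MEFs), NM_029640 (0.11 and 0.41) and NM_180662 (0.07 and 0.31). They were opposite for NM_001164642 (0.07 and -0.14), so the opposite sign of this gene depends on the transcripts compared.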

How the results depend on the processing

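No paired analysis was possible because each group has 1 library. The count of 2 genes higher in ES3 knockout cells became 1 (Nnat) with a pseudocount of 5 RPKM and 0 at a 3-fold threshold, and the MEF count of 0 became 1 (Mcts2) at 1.5-fold. The 5 genes with a KAP1 peak within 20 kb became 3 by distance from the gene start, 2 with a peak over the start (chosen after seeing the data), 5 at 50 kb and 7 at 100 kb, beside 6.94%, 0.174%, 21.8% and 33.7% of symbols. The 1 gene with a wild-type-only H3K9me3 region became 0 at 5 kb, 0 at 10 kb, 2 at 50 kb and 7 at 100 kb, beside 15.7%, 20.3%, 44.9% and 62.8% of symbols. Keeping the transcript with the lowest mean turned the log2 ratios of Blcap in ES3 cells to -0.00136, of Trappc9 in ES3 cells to 0.07, of H13 in MEFs to -0.34 and of Trappc9 in MEFs to -0.14. Of 80 recomputed ratios, 73 kept their sign and side of 2-fold, but many of them could not have changed sign. A pseudocount cannot turn a sign, and a gene with 1 transcript has the same value whichever transcript is kept. The 6 that turned sign came from centring by span or from the transcript of lowest mean. The count of 73 is therefore no measure of how firm the ratios are. With a pseudocount of 5 RPKM the genes called over all measured were 538 higher and 164 lower in ES3 cells and 35 and 87 in MEFs; with 0.1 RPKM they were 2130 and 601, and 218 and 1053; at 3-fold 595 and 111, and 4 and 41; at 1.5-fold 2886 and 1295, and 1257 and 1776. Centring within bins of gene span gave 87 higher and 286 lower in MEFs, where the rank correlation of span with ratio was -0.54. Unknown depth limits the low values, those of Nap1l5 above all.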

Other observations

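The spans of 728 of 17818 symbols, 4.09%, lay inside the span of a longer symbol. That count took either strand and did not check for introns or for retrotransposed copies, so it does not count nesting of the kind described here. Within a distance of 0.5 over the 4 libraries lay 1 gene for Nnat, 8 for Inpp5f, 9 for H13, 16 for Mcts2, 23 for Blcap, 48 for Trappc9, 74 for Zrsr1 and 348 for Nap1l5. The closest were Sft2d1 and Klhdc2 to Blcap (0.22 and 0.27), Carns1 and Gngt1 to Nap1l5 (0.14 and 0.14), Rogdi and Haus4 to Mcts2 (0.13 and 0.28), Tmem159 and Socs5 to H13 (0.34 and 0.42), Mbd6 and Eps15l1 to Zrsr1 (0.12 and 0.14), Gsdmd and Zfp579 to Trappc9 (0.19 and 0.20), and Abt1, after Serping1, to Nnat (0.53). Likeness over 4 libraries is a description of levels.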
